A study of Arabidopsis thaliana with 6 samples.

Results

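The 10 genes described here make up the aliphatic glucosinolate synthesis and MYB28 group of Arabidopsis thaliana. They were taken by identifier from a table of 33557 genes: the regulators MYB28, MYB29 and MYB76, the side-chain elongation genes BCAT4, MAM1 and MAM3, and the core-structure genes CYP79F1, CYP79F2, CYP83A1 and SUR1. RNA came from whole seedlings of accession Landsberg erecta (Ler), either wild type or carrying phyA-1, a mutant allele of the phytochrome A gene. Both genotypes spent 4 days in darkness and then 3 hours in far-red light, and each was represented by 3 libraries described as independent biological replicates. The comparison asks which transcripts differ between the genotypes under far-red light. No dark-kept seedlings were included, so differences present before the light cannot be told apart from a response to it, and a single mutant allele was used. RNA came from whole seedlings, so fewer cells of a type and less RNA per cell cannot be told apart either.

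Glucosinolates are sulfur-rich defence compounds of the cabbage order that release toxic products when tissue is crushed and myrosinase enzymes reach them. The aliphatic kind starts from methionine, whose side chain is first lengthened in repeated cycles. A shared chain of reactions then builds the core structure, and the side chain is modified afterwards. MYB28, with its relatives MYB29 and MYB76, activates the genes of this branch, and a parallel branch makes indole glucosinolates from tryptophan.

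Transcripts of MYB28 fell in phyA-1, whereas those of the chain elongation genes BCAT4 and MAM3 rose. The 3 tested core-structure genes, CYP79F2, CYP83A1 and SUR1, were not called. MYB29, MYB76, MAM1 and CYP79F1 were listed at or near 0 in both genotypes and were not tested by the authors. Every level is an FPKM value, in which fragments are scaled by transcript length and by mapped fragments, and which the authors pooled over the libraries of a genotype. It carries no spread between libraries, depth per library is unknown, and the call is the authors' own test at a q-value of 0.05 or below. Rose and fell mean called higher and called lower in phyA-1.

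Upstream sequence is shown for MYB28 and BCAT4, because the one fell while the other, a gene of the branch it regulates, rose. Each line holds the 250 bases before the RefSeq gene start in assembly TAIR10.1, 5′ to 3′ on the strand of the gene, with each ACGT in capitals. The reference comes from accession Columbia, and the Ler sequence was not read here. The MYB28 window is chr5:24691188-24691437 and that of BCAT4 chr3:6849583-6849832, both on the minus strand.
MYB28: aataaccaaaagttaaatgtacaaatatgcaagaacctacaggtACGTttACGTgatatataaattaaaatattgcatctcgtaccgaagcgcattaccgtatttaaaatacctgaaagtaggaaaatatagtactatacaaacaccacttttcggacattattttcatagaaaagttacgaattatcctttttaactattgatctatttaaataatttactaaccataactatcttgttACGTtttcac
BCAT4: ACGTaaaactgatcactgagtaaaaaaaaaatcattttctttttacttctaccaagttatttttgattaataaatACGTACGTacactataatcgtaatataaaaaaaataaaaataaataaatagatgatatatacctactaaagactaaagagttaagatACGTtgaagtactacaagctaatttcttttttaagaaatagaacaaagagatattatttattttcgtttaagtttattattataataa

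ACGT, the core of many sites bound by light-regulated bZIP and bHLH factors, occurred 3 times in the MYB28 window and 4 times in that of BCAT4. Of the 9 members searched, all but MAM3, 7 had a window that held it, against 44.1% of 27437 windows of the same length before protein-coding genes. The full G-box CACGTG, which contains ACGT, was found before CYP83A1 and SUR1 only among these 9, against 6.49% of all windows. CACGCGC, the motif bound by FHY3 and FAR1 of phytochrome A signalling, was found in 0 of the 9, against 1.06%. ACCNAAC, a motif of plant MYB factors, was found before CYP83A1 and SUR1, against 14.5%. Both strands were searched for all 4 motifs. The G-box was absent from the windows of MYB28 and BCAT4, which were called, and from that of CYP79F2, which was not. CYP83A1 and SUR1, whose windows held it, were tested and not called. Whether any motif goes with a call was not tested.

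MYB28 (AT5G61420, TAIR10 chromosome 5, 24689151 to 24691095) had 5.04 FPKM in wild type and 1.94 FPKM in phyA-1. Its level was thus 2.60-fold higher in wild type, a log2((FPKM + 1) ratio) of phyA-1 over wild type of -1.04 (q = 0.00045, the authors' deposited table). On that scale 2.72% of all 22892 tested genes had a lower ratio. The deposited p-value of MYB28 is 5e-05, the smallest in the authors' deposited table and shared by 1668 genes. A Benjamini-Hochberg adjustment of the deposited p-values over all 22892 tested genes gave 0.000686 for it, above the deposited q-value. Over which genes the authors adjusted is not known here. MYB29 (AT5G07690, chromosome 5, 2446764 to 2448543) was listed at 0 in both genotypes. MYB76 (AT5G07700, chromosome 5, 2450325 to 2451578) was listed at 0 in wild type and at 0.0256 FPKM in phyA-1. MYB28 was therefore the 1 regulator of the 3 with a level that the authors tested.

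The first enzyme of chain elongation is BCAT4, which removes the amino group of methionine. BCAT4 (AT3G19710) had 0.971 FPKM in wild type and 2.10 in phyA-1. This is 2.16-fold higher in phyA-1 (log2 ratio 0.65) (q = 0.00846, the authors' deposited table). Its deposited locus, chromosome 3 from 6843662 to 6849497, is shared with AT3G19700 (IKU2), which was listed at 0.00558 FPKM in wild type and at 0 in phyA-1. MAM3 (AT5G23020, named IMS2 in RefSeq, chromosome 5, 7718121 to 7721839), which condenses the resulting keto acid with acetyl-CoA, had 3.81 FPKM in wild type and 7.12 in phyA-1. That is 1.87-fold higher in phyA-1 (log2 ratio 0.75) (q = 0.00121, the authors' deposited table). BCAT4 and MAM3 thus had ratios above those of 96.2% and 97.2% of tested genes, on the opposite side from MYB28. The neighbouring gene MAM1 (AT5G23010, chromosome 5, 7703092 to 7706896) was listed at 0.0116 FPKM in wild type and 0.0145 FPKM in phyA-1. Ler is known to carry a related gene, MAM2, in place of MAM1, while the table follows a Columbia annotation. Whether that bears on the levels of MAM1 and MAM3 was not tested.

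Of the core-structure genes, CYP79F2 and CYP79F1 encode the cytochromes P450 that turn chain-elongated methionine into aldoximes, CYP79F2 acting on the long-chain forms. CYP79F2 (AT1G16400, chromosome 1, 5605159 to 5607473) had 1.02 FPKM in wild type and 1.26 in phyA-1, a log2 ratio of 0.16 (q = 0.484, the authors' deposited table). CYP79F1 (AT1G16410, chromosome 1, 5608807 to 5611426) was listed at 0 in both genotypes. CYP83A1 (AT4G13770, chromosome 4, 7990485 to 7992311), which oxidises the aldoximes, had 1.08 and 1.51 FPKM in wild type and phyA-1, a log2 ratio of 0.27 (q = 0.241, the authors' deposited table). SUR1 (AT2G20610, chromosome 2, 8877960 to 8880388), a C-S lyase that serves the aliphatic and the indole branch alike, had 40.5 and 44.6 FPKM, a log2 ratio of 0.13 (q = 0.557, the authors' deposited table). All 3 tested genes were listed higher in phyA-1, but no difference passed the authors' test, and 0 reached an unadjusted p of 0.05 in the authors' deposited table.

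**Figure D1:**
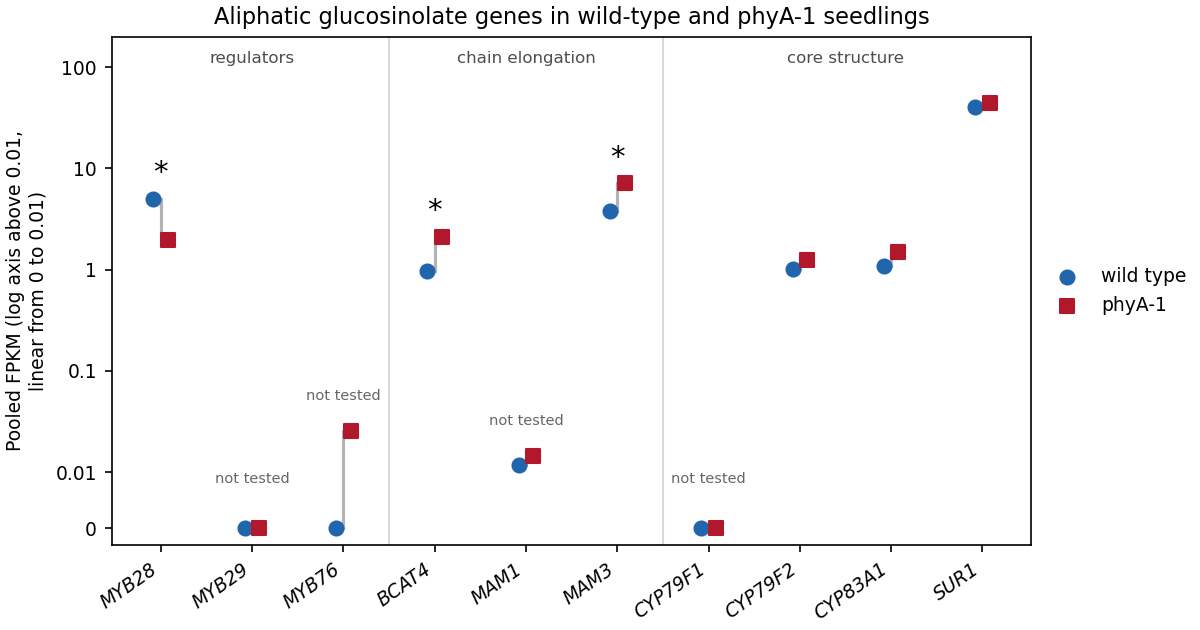
Pooled FPKM of the 10 members in wild type (blue circles) and phyA-1 (red squares), on an axis that is logarithmic above 0.01 and linear below; asterisks mark genes called by the authors' deposited table, and each point pools 3 libraries without a spread. MYB28 falls from 5.04 to 1.94 FPKM, BCAT4 and MAM3 rise, and SUR1 at 40.5 and 44.6 FPKM lies far above the other members.

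The order of levels differed between the genotypes, though neighbours in it cannot be told apart without a spread. In wild type SUR1 came first, followed by MYB28, MAM3, CYP83A1, CYP79F2 and BCAT4. In phyA-1 MAM3 and BCAT4 stood above MYB28. SUR1 had a mean level above that of 84.3% of tested genes, and the other 5 tested members ranked above 17.8% (CYP79F2) to 39.5% (MAM3). All tested members except SUR1 and MAM3 thus had a mean level below 5 FPKM, where the median tested gene had 8.86.

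The untested members have close relatives among the tested ones, and the paired coding sequences are shown to let the similarity be judged. In Columbia the coding sequences of CYP79F1 and CYP79F2 were 91.4% identical over 1614 aligned bases, and those of MAM1 and MAM3 83.8% identical over 1512. The first stretch of 90 bases aligned without a gap is given for each pair, with differing bases in capitals. In TAIR10.1 these are chr1:5608895-5608984 for CYP79F1, chr1:5605261-5605350 for CYP79F2, chr5:7703173-7703262 for MAM1 and chr5:7718203-7718292 for MAM3, all on the plus strand.
CYP79F1: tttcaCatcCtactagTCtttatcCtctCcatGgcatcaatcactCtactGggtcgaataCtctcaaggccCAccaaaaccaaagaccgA
CYP79F2: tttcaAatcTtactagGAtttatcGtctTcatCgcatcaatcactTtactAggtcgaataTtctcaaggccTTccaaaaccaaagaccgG
MAM1: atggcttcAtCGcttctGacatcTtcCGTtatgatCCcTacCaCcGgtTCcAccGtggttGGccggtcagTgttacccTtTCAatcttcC
MAM3: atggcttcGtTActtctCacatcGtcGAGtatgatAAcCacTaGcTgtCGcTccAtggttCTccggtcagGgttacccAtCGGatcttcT

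The CYP79F stretches differed at 13 bases and the MAM stretches at 26. Of all 36-base words in the spliced transcripts, 4.14% of those of CYP79F1 occur in CYP79F2 and 5.65% of those of CYP79F2 in CYP79F1. No such word was shared between MAM1 and MAM3, or between any pair of MYB28, MYB29 and MYB76, whose coding sequences were 74.3% to 77.1% identical. How reads were divided among copies by the authors was not measured here, which leaves the levels of the CYP79F pair uncertain. Only Columbia copies were compared, without the MAM2 of Ler, so the levels of MAM1 and MAM3 cannot be called more certain.

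In all, 3 of the 10 members were called, 2 higher and 1 lower, among the 6 that were tested. Of all tested genes 17.2% were called, 8.61% higher and 8.54% lower, and no difference of the members from these shares was tested. The same 3 members passed a q-value of 0.01, as did 11.5% of tested genes, and a Benjamini-Hochberg adjustment of the deposited p-values over all tested genes, as did 15.5%. With genes of at least 5 FPKM on average, of which 20.3% were called, MAM3 was the 1 called member, MYB28 and BCAT4 lying below that level. The median log2 ratio over the 10 members was 0.09, against 0 over all 33557 genes of the table, and the 4 untested members at or near 0 draw it towards 0. Over the 6 tested members it was 0.22, against 0.05 over all tested genes. The 5 tested enzymes all lay above 0 (0.13 to 0.75), as did 59.0% of all tested genes. A median does not describe these members well, since their ratios ran in both directions, from -1.04 for MYB28 to 0.75 for MAM3.

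**Figure D2:**
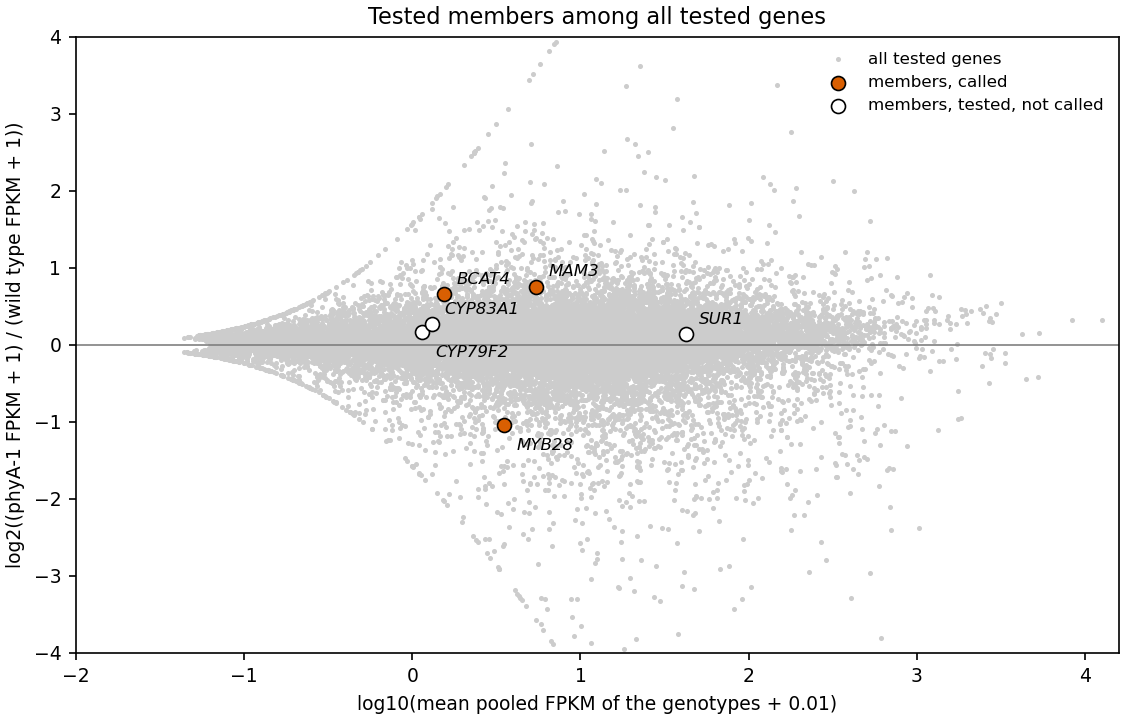
The log2((FPKM + 1) ratio) of phyA-1 over wild type against the log10 mean pooled FPKM for all 22892 tested genes (grey) and the 6 tested members (orange where called, white where not); 28 genes lie outside the axes. MYB28 lies at -1.04 and BCAT4 and MAM3 at 0.65 and 0.75, and the uncalled members lie from 0.13 to 0.27. All 6 lie among the grey points.

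The other genes of chain elongation did not follow BCAT4 and MAM3 past the threshold. None of the 6, all tested, was called by the authors' deposited table, where 17.2% of all tested genes were called. Of the 6, 0 reached an unadjusted p of 0.05 in it, and their log2 ratios ran from -0.20 to 0.20. The 0.20 is that of BAT5, at 0.133 FPKM in wild type and 0.305 in phyA-1 (q = 0.458, the authors' deposited table). At this low level the pseudocount shrinks a 2.29-fold difference, similar in size to that of BCAT4. IIL1, the large subunit of the isomerase of the elongation cycle, had 57.0 FPKM in wild type and 64.9 in phyA-1 (q = 0.394, the authors' deposited table). Of the 7 other core-structure genes, all tested, 2 rose and none was called lower, where 8.61% of all tested genes rose and 8.54% fell. GGP1, a peptidase that processes the glutathione conjugate, had 58.2 and 81.5 FPKM (log2 ratio 0.48) (q = 0.00558, the authors' deposited table). GSTF11, a glutathione transferase gene of the aliphatic branch, was listed at 0 in wild type and at 0.116 FPKM in phyA-1. Its p-value in the authors' deposited table, 0.00135, is that of 31 called genes listed at 0 in wild type, GSTF11 among them, which makes the call less certain. UGT74C1, a glucosyltransferase gene linked to the aliphatic branch, stood at 7.13 FPKM in wild type and 2.32 in phyA-1, a log2 ratio of -1.29. It was not called (q = 0.0595, unadjusted p = 0.01505, the authors' deposited table), and its locus is shared with AT2G31800.

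Side-chain modification showed no call in the authors' deposited table among 9 tested genes of 10, where 17.2% of all tested genes were called. Of the 9, 0 reached an unadjusted p of 0.05 in it, with log2 ratios from -0.20 to 0.26. The S-oxygenase gene FMO GS-OX4 had 123 FPKM in wild type and 142 in phyA-1 (q = 0.416, the authors' deposited table). AOP2 was listed at 0 in both genotypes, and AOP3, the copy known to act in Ler, had 0.947 and 0.692 FPKM (q = 0.356, the authors' deposited table). Counting the members, 5 of the 33 genes on the aliphatic lists were called, 4 higher and 1 lower, and MYB28 was the 1 that fell. With 28 of the 33 tested this is 17.9%, beside 17.2% of all tested genes. The 4 called higher were BCAT4, MAM3, GGP1 and GSTF11. These lists are not confined to the aliphatic branch, since SUR1 serves the indole branch as well, and GGP1 was not taken as specific to either branch.

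**Figure D3:**
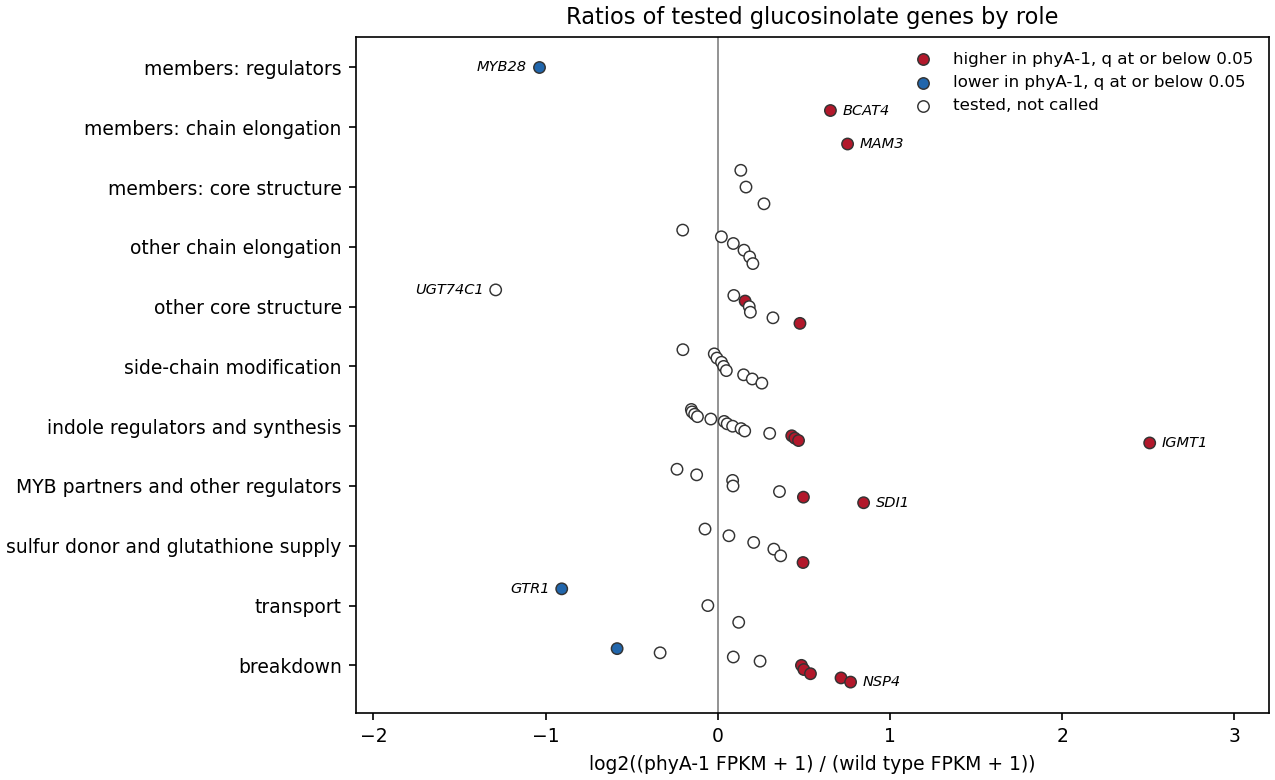
The log2((FPKM + 1) ratio) of phyA-1 over wild type for each tested gene of the glucosinolate lists, grouped by role; red and blue mark genes called higher and lower in the authors' deposited table, and white marks genes not called. MYB28 at -1.04 stands opposite BCAT4 and MAM3, and IGMT1 at 2.51 lies farthest to the right.

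Of a list of 8 genes for partners of MYB28 and other regulators, 7 of them tested, 2 rose and none was called lower, where 8.61% of all tested genes rose. SDI1, a sulfur deficiency gene whose protein binds MYB28 and represses aliphatic synthesis, had 2.38 FPKM in wild type and 5.08 in phyA-1. That is 2.13-fold higher in phyA-1 (log2 ratio 0.85) (q = 0.00045, the authors' deposited table). MYC2, a bHLH factor that acts with the glucosinolate MYBs, had 55.5 and 78.7 FPKM (log2 ratio 0.50) (q = 0.00472, the authors' deposited table). The other 6 genes of that list, 5 of them tested, were not called. In the list of sulfate donor and glutathione supply 1 of 6 rose, APK2, an adenosine phosphosulfate kinase gene, at 11.2 and 16.2 FPKM (log2 ratio 0.50) (q = 0.00965, the authors' deposited table). With all 6 tested, 16.7% of that list was called, near the 17.2% of all tested genes.

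The indole branch, the part of metabolism most like the aliphatic one, was used for comparison. Its regulators MYB34, MYB51 and MYB122 were not called, and MYB34 had 56.0 FPKM in wild type and 50.9 in phyA-1 (q = 0.553, the authors' deposited table). Of its 15 genes, all tested, 4 rose (2 at a q-value of 0.01) and none fell, where 8.61% of all tested genes rose and 8.54% fell. Of those listed lower in phyA-1, 0 reached an unadjusted p of 0.05 in the authors' deposited table. These counts depend on which genes the list holds. IGMT4, a related methyltransferase gene outside the list, was called lower at 5.16 FPKM in wild type and 3.24 in phyA-1 (q = 0.00989, the authors' deposited table). IGMT1, an indole glucosinolate methyltransferase gene, had 6.85 and 43.7 FPKM (6.37-fold, log2 ratio 2.51) (q = 0.00045, the authors' deposited table). GSTF9 rose from 468 to 649 FPKM (0.47), CYP79B3 from 29.5 to 40.5 (0.45) and CYP81F3 from 11.7 to 16.2 (0.43). Their q-values in the authors' deposited table were 0.0245, 0.0082 and 0.0161. Whether the branches differed in their response was not tested.

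Levels of the branches were far apart at corresponding steps, on the FPKM scale, which corrects for length. CYP83B1, the indole counterpart of CYP83A1, had 94.7 FPKM in wild type and 97.2 in phyA-1, 87.4 and 64.4 times the level of CYP83A1. The summed level of CYP79B2 and CYP79B3 was 46.6 times that of CYP79F1 and CYP79F2 in wild type and 44.9 times in phyA-1. The sulfotransferase gene SOT16 stood at 5.22 and 4.82 times the sum of the aliphatic SOT17 and SOT18. For the regulators, the summed level of MYB34, MYB51 and MYB122 was 12.95 times that of the MYB28 trio in wild type and 31.3 times in phyA-1. As a fold change between the genotypes, the last ratio is the one that moved most of these 4, with MYB28 providing nearly all of the aliphatic sum. These steps were chosen after the values were seen, and the ratios have no spread and no test.

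**Figure D4:**
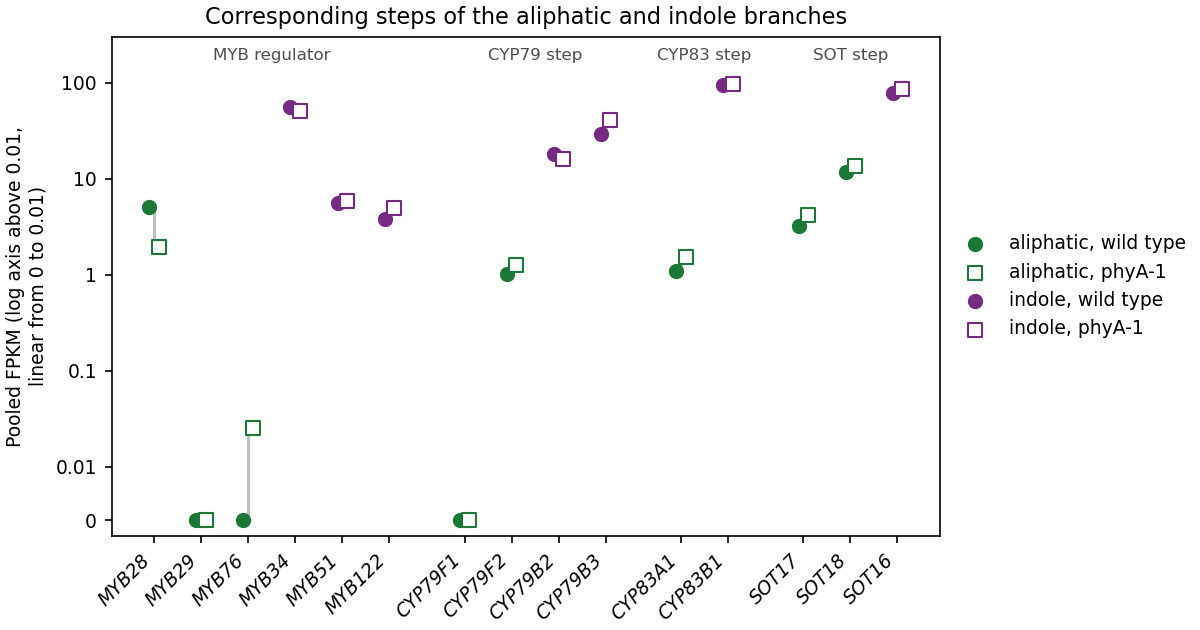
Pooled FPKM at corresponding steps of the aliphatic (green) and indole (purple) branches in wild type (filled circles) and phyA-1 (open squares), on an axis that is logarithmic above 0.01 and linear below. CYP79F2 and CYP83A1 lie between 1.02 and 1.51 FPKM, and their indole counterparts between 16.1 and 97.2 FPKM.

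Transport and breakdown genes split in direction. GTR1, a glucosinolate transporter gene whose locus is shared with AT3G47950, had 46.0 FPKM in wild type and 24.1 in phyA-1 (log2 ratio -0.91) (q = 0.00045, the authors' deposited table). GTR2 and GTR3 were not called. Of 10 breakdown genes, 9 tested, 5 rose and 1 fell, where 8.61% of all tested genes rose and 8.54% fell. The gene that fell was ESP, the epithiospecifier, which steers breakdown towards epithionitriles, at 44.7 and 29.5 FPKM (-0.58) (q = 0.000841, the authors' deposited table). The 5 that rose were the nitrile-specifier genes NSP1 to NSP5. NSP3, NSP1 and NSP4 lie close together on chromosome 3, from 5562571 to 5574541, and the sharing of reads between these genes is not known here. NSP3 was low, at 0.312 FPKM in wild type and 0.855 in phyA-1 (q = 0.00891, the authors' deposited table). NSP4 had 100.5 FPKM in wild type and 172 in phyA-1 (0.77), NSP2 0.180 and 0.939 (0.72), and NSP1 629 and 915 (0.54), with q-values of 0.00045, 0.00157 and 0.0397 in the authors' deposited table. NSP1 did not pass a Benjamini-Hochberg adjustment of the deposited p-values over all tested genes. The myrosinase gene TGG1 had 151 and 120 FPKM and was not called (q = 0.108, unadjusted p = 0.03255, the authors' deposited table).

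PHYA itself had 167 FPKM in wild type and 16.0 FPKM in phyA-1 (log2 ratio -3.30) (q = 0.00045, the authors' deposited table), in the direction the genotype label implies. Reference genes were not called in 5 of 5 cases, where 17.2% of all tested genes were called. None of them reached an unadjusted p of 0.05 in the authors' deposited table, and their log2 ratios ran from -0.17 to 0.25. None of 5 vascular markers was called or reached an unadjusted p of 0.05 in the authors' deposited table, and their summed level was 153 FPKM in wild type and 159 in phyA-1. Among 4 guard cell markers KAT1 rose (7.57 and 10.96 FPKM) (q = 0.00586, the authors' deposited table), and the sums were 20.5 and 22.5 FPKM. Of these 4, 2 were listed higher in phyA-1 and 2 lower, MYB60 at 9.89 and 8.58 FPKM and GC1 at 0.948 and 0.731. Among 4 root hair markers EXPA18 and PRP3 rose, with q = 0.028 and 0.000841 in the authors' deposited table, where 8.61% of all tested genes rose. The sums of the 4 were 103 and 145 FPKM. PRP3 alone had 63.2 and 95.5 FPKM. Here 3 markers were listed higher in phyA-1 and 1 lower, COBL9 at 6.65 and 6.31 FPKM. No marker was listed at 0. No difference of these short lists from the shares of all tested genes was tested. The part of these cell types in the rise of BCAT4 and MAM3 and the fall of MYB28 was not tested.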

How the data were processed

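The genome build TAIR10 and the aligner Bowtie are named per the submitters' processing notes. Not given in the sources used here are the tool behind the levels and the test, read depth and strandedness. The authors deposited 1 FPKM per gene and genotype, pooled over 3 libraries, with a log2 ratio, a p-value, a q-value and a test score. The table has no header, and its columns were identified from order and values. Its log2 ratio matched the FPKM ratio within 0.001 in 99.97% of tested genes whose ratio is finite. No test per library could be run. Ratios were recomputed as phyA-1 over wild type with a pseudocount of 1 FPKM, which shrinks those of low genes. The labels call the libraries independent and give no more on their origin. Which spread entered the deposited p-values is not known here, and they speak for these samples only.

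Deposited starts count from 0 and are printed 1-based. Upstream and coding sequences were read from RefSeq TAIR10.1 at RefSeq coordinates, all 10 members matching by identifier; deposited and RefSeq gene ends differ for the members. The upstream window of MAM3 is not reported here. Alignments used Biopython 1.88, the rest pandas 2.3.3 and NumPy 2.4.6. The adjustment was tested on simulated data. Alternatives were a stricter q-value, Benjamini-Hochberg adjustment, a minimum level, other pseudocounts, centring and leaving out shared loci.

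Members and lists were chosen with earlier results of these data known. Named genes are all members, PHYA, and per list up to 4 called genes by size of ratio or, with no call, the gene with the highest mean FPKM. BAT5, UGT74C1, AOP2, AOP3, MYB51, MYB122, GTR2, GTR3, TGG1, NSP3, NSP5, the markers and the corresponding steps were named after their values were seen. No gene was named for likeness of pattern, which 2 pooled values cannot show.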

Additional observations from a re-analysis of the deposited data

How the results depend on the processing

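Without shared loci 2 of the 3 member calls were left, BCAT4 being the one left out. With a mean of at least 5 FPKM there was 1 (MAM3), and the aliphatic calls went from 5 to 2, fewer genes being tested. The indole calls went from 4 to 2 with a q-value of 0.01, GSTF9 and CYP81F3 being lost. The member median of 0.09 was 0.21 with a pseudocount of 0.1, 0.032 with 5, 0.014 after centring on genes of at least 5 FPKM, 0.22 at a mean of at least 1 FPKM (6 members) and 0.44 at 5 FPKM (2 members). Over only the 6 tested members, a choice made after seeing the data, it was 0.22. The cause was not tested beyond the members each setting leaves out. NSP1 lost its call with Benjamini-Hochberg adjustment over all tested genes and with a q-value of 0.01. Over all 22 tested genes named by rule other than PHYA, 121 of 125 alternative values kept direction and call, and no ratio changed sign. Much of that tally was fixed beforehand. Pseudocounts and centring do not enter the authors' test, so they could not change a call, and a stricter q-value could not add one. Only centring could change a sign, since a pseudocount cannot and the other settings leave the ratio as it is. No paired analysis was possible because the deposited table pools the libraries, and leaving out single replicates was not run for the same reason.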

Other observations

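The large ratio of IGMT1 was not shared by its tandem neighbours on chromosome 1, genes chosen after their values were seen. IGMT2 had 2.43 FPKM in wild type and 2.08 in phyA-1 (q = 0.579, the authors' deposited table). IGMT3 had 15.2 and 12.1 FPKM (q = 0.131, the authors' deposited table). IGMT4, called lower as given above, had a log2 ratio of -0.54. IGMT5, elsewhere on the chromosome and with a shared locus, had 89.2 and 120 FPKM and was called higher (q = 0.0214, the authors' deposited table). These methyltransferase genes are similar in sequence, and the sharing of reads between the copies is not known here.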
